A study of Mus musculus with 8 samples.

Results

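Within Runx1 transgenic skin, 2 populations of hair follicle keratinocytes were compared: cells sorted as hair germ and cells sorted as bulge. The members were chosen by sample title, 2 arrays of Runx1 iTG hair germ cells and 2 of Runx1 iTG bulge cells, which are 4 of the 8 arrays in the series. The other 4 arrays hold the same populations from WT mice. Runx1 iTG mice are described as Tet-on Runx1 transgenics. The promoter that drives the transgene, the number of founder lines and whether samples were pooled from several animals are not given in the sources used here. All mice, WT included, received doxycycline in food at 1 g per kg for 1 day, and the treatment record gives repression of H2BGFP as its purpose. Follicles were in telogen, when no hair is growing. Mice were labelled postnatal day 20, or day 21 for replicate 2 of both transgenic populations. Cells were sorted as positive for keratin 15-GFP and α6-integrin, then split by CD34, a cell surface glycoprotein. The CD34-positive fraction was taken as bulge and the CD34-negative fraction as hair germ. They are called CD34-positive and CD34-negative cells here, for a reason given with the markers.

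The bulge is the part of the outer root sheath where slowly cycling stem cells of the follicle reside. The hair germ is a small cluster below it, next to the dermal papilla, that divides first when a new hair starts to grow. The sebaceous gland opens into the upper follicle above the bulge, and its cells fill with lipid under the control of the nuclear receptor PPARγ. Runx1 is a DNA-binding transcription factor that pairs with CBFβ and is expressed in parts of the follicle.

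Each value is the signal of 1 probe set for a gene on 1 array, after scaling to a common 75th percentile. A background of 31.1 was set from bacterial control probe sets. Between 69.0 and 76.3% of probe sets lay above it on the 4 transgenic arrays. Deposited median intensity was 132 and 151 in CD34-positive cells and 102 and 119 in CD34-negative cells. Across genes, the 2 arrays of a population had rank correlations of 0.949 (CD34-positive) and 0.958 (CD34-negative), against 0.890 to 0.913 between populations. Xist, the RNA that coats the inactive X chromosome, read 35.7 and 72.5 in replicate 1 of the 2 populations and 9973 and 10277 in replicate 2. Replicate number, age and the sex these signals point to therefore go together in the transgenic arrays and are balanced between the populations.

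The sort markers were read first. Cd34, the gene of the sorted surface protein, read 4902 and 8596 in CD34-positive cells and 2.42 and 5.24 in CD34-negative cells. Both CD34-negative arrays were below background. The log2 difference, CD34-negative minus CD34-positive, was -10.83 ± 1.0 (limma adjusted p 0.000267), at least 209-fold. Every difference is given in this direction on the log2 scale, with ± its standard error, for 2 arrays against 2. Itga6, which encodes α6-integrin, read 6678 and 5964 against 4705 and 6551, and the ranges overlapped (-0.18 ± 0.22, adjusted p 0.688). Krt15, the basal keratin named in the GFP reporter of the sort, read 29757 and 27182 against 11764 and 16016 and fell by 2.07-fold (-1.05 ± 0.23, adjusted p 0.017), although it missed the threshold without CD34-positive replicate 1 or 2 or CD34-negative replicate 1. The keratinocyte genes Krt14 (0.10) and Cdh1, which encodes E-cadherin (0.14), did not pass.

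Runx1, the targeted gene, read 19461 and 13699 in transgenic CD34-positive cells and 12107 and 12882 in transgenic CD34-negative cells by its brightest probe set. In WT cells it read 658 and 904 against 495 and 489. Every transgenic array was above every WT array by this probe set and 1 other of the 6 Runx1 probe sets. The 2 transgenic populations did not differ past the threshold by this probe set (-0.39 ± 0.25, adjusted p 0.409). All 6 Runx1 probe sets had a negative difference, from -3.31 to -0.15. In the fit to every probe set on its own, 4 of the 6 passed, with differences of -2.41, -3.31, -2.39 and -2.47 (adjusted p 0.00639, 0.0232, 0.0236 and 0.0294). By these 4, both transgenic CD34-negative arrays were below both WT CD34-negative arrays. The first of them read 1770 and 2420.1 against 242 and 626 in transgenic cells, and 2964 and 2509.6 against 1758 and 1378 in WT cells. The Runx1 partner Cbfb read 3415 and 3402 against 3594 and 2775 in transgenic cells (-0.11 ± 0.23), and none of the 6 RUNX and CBFB genes passed by its brightest probe set. Among the transgenic arrays, Runx3 was above background only in CD34-positive replicate 2, at 10.8 and 93.9 against 21 and 13.6.

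**Figure D1:**
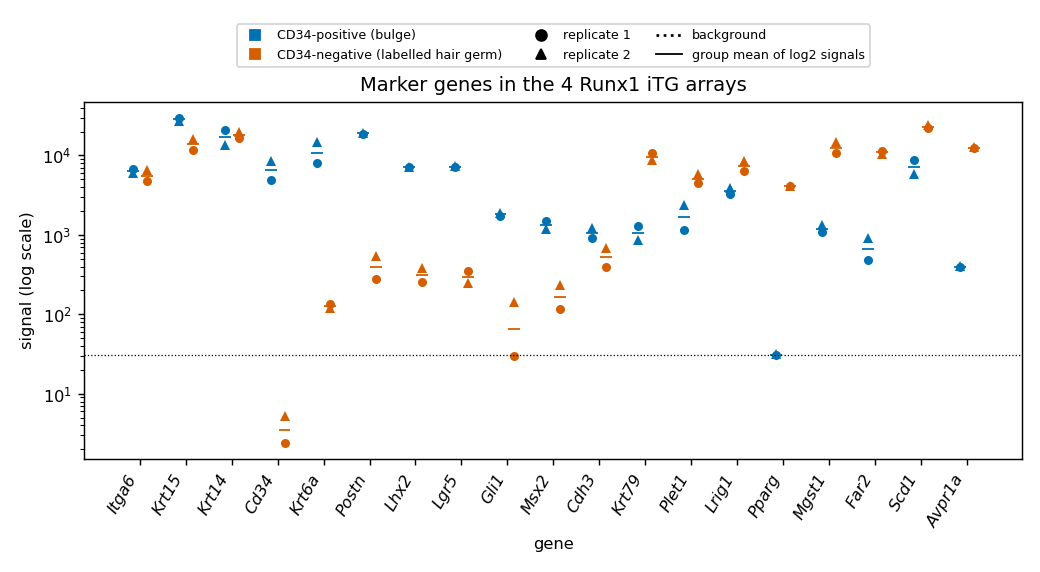
Signal (log scale) of 19 marker genes on the 4 Runx1 iTG arrays. Circles are replicate 1 and triangles replicate 2, bars are the geometric mean of a group, and the dotted line is the background of 31.1. Cd34, Krt6a, Postn, Lhx2, Lgr5, Gli1 and Msx2 are high in CD34-positive cells, while Krt79, Pparg, Mgst1, Far2, Scd1 and Avpr1a are high in CD34-negative cells.

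Markers of the bulge were high in the cells labelled bulge, as given below, but hair germ markers did not bear out the hair germ label. Of 5 such markers, 3 fell in CD34-negative cells and 2 did not pass. In the longer list of 26 hair germ and matrix progenitor genes, 11 fell and 3 rose, Edar among the latter. Gli1, a target of Hedgehog signalling, read 1751 and 1888 against 29.6 and 142 (-4.81 ± 0.68, adjusted p 0.00223). Msx2, a homeobox factor of the hair lineage, read 1483 and 1187 against 118 and 235 (-3.0 ± 0.49, adjusted p 0.00434), and Ptch1, the Hedgehog receptor, fell by 1.49 (missing the threshold without CD34-positive replicate 1 or CD34-negative replicate 1). Cdh3, which encodes P-cadherin, read 910.3 and 1226 against 399.7 and 686 (-1.01 ± 0.37, adjusted p 0.13), and Lef1, a WNT effector, read 354 and 603 against 188 and 232 (-1.15 ± 0.57, adjusted p 0.267). Sebaceous gland genes rose in CD34-negative cells, in 15 of 24 cases, while upper follicle genes moved in both directions. In such bulk samples, fewer cells of a type and less RNA per cell cannot be told apart.

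Of 18193 genes, 818 were higher (4.5%) and 957 lower (5.26%) in CD34-negative cells at a limma adjusted p under 0.05, 9.76% in all. Among them, 335 were higher and 567 lower by at least 4-fold, and the median difference over all genes was -0.06. Leaving out CD34-positive replicate 2 left 347 higher and 400 lower, leaving out CD34-negative replicate 1 left 262 and 375, leaving out CD34-negative replicate 2 left 397 and 790, and leaving out CD34-positive replicate 1 left 563 and 510. Passing in all 8 fits that each left out 1 array was seen for 500 genes. A gene named below as higher or lower with its values passed in all 8 unless the exception is stated beside it. The arrays of the 2 populations did not overlap for 51.6% of genes, so separation of 2 arrays from 2 is by itself common. Shares called in the inner root sheath and hair shaft, melanocyte, immune, chemokine, EGF receptor, glucocorticoid response and FGF lists were 6.25 to 14.8%. These are near the 9.76% of all genes and so give no result about those lists. The shares were 16.7% in the interferon and antigen presentation, 18.5% in the glycolysis and hypoxia, 19.0% in the retinoid and 20.7% in the Notch list. They were 24.2% in the junction, 26.9% in the immediate early and 30% in the CDK inhibitor list. Counts for day 20 arrays only compare 1 transgenic array with 1, with the spread taken from the WT arrays, and are given as values and not as a check.

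**Figure D2:**
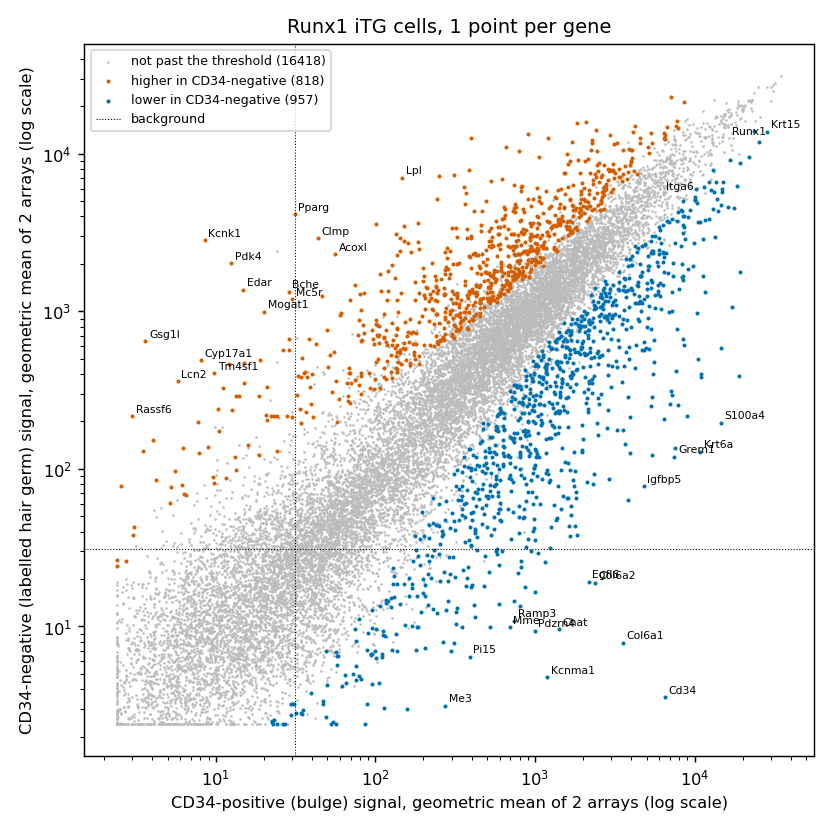
Geometric mean signal of each gene in CD34-positive (x) and CD34-negative (y) Runx1 iTG cells, both on log scales, 1 point per gene of 18193. Orange points (818) were higher and blue points (957) lower in CD34-negative cells at an adjusted p under 0.05, dotted lines mark the background, and the 15 genes with the largest differences in each direction are named with Krt15, Itga6 and Runx1.

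The 15 largest rises included the lipid regulator Pparg, the lipase Lpl and the hormone receptor Mc5r. Kcnk1, a potassium leak channel, read 5.73 and 12.6 in CD34-positive cells and 2656 and 2988 in CD34-negative cells, at least 90.5-fold higher (8.37 ± 0.80, adjusted p 0.00032). Pparg, the nuclear receptor of lipid-forming cells, read 30.5 and 32.1 against 4171 and 4079, at least 131-fold higher (7.04 ± 0.59, adjusted p 0.000183). Both genes lay near or below background in CD34-positive cells and were bright in both CD34-negative arrays. Pdk4, a pyruvate dehydrogenase kinase, read 3.21 and 48.7 against 1210.2 and 3353, at least 51.7-fold (7.33 ± 1.07). Lpl, lipoprotein lipase, read 244 and 88.8 against 6631 and 7461, 47.8-fold (5.58 ± 0.74, adjusted p 0.00156). Mogat1, an acyltransferase of triglyceride synthesis, read 57.5 and 6.98 against 1051 and 944 (5.64 ± 0.91). Of these 3, Lpl was above background in both CD34-positive arrays and the others in 1.

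Mc5r, the melanocortin receptor of sebaceous gland cells, read 20.1 and 45 against 728 and 1943 (5.30 ± 0.76, adjusted p 0.00232). Cyp17a1, a steroid hydroxylase, read 9.10 and 7.18 against 701 and 342, at least 15.7-fold (5.92 ± 0.86). Edar, the ectodysplasin receptor, read 40.5 and 5.40 against 1269 and 1482 (6.54 ± 0.90), but its other probe set stayed below background on all 4 arrays. The others were Gsg1l (7.48), Rassf6 (6.17), the adhesion gene Clmp (6.06, missing the threshold without CD34-negative replicate 1), the secreted lipocalin Lcn2 (5.96), the cholinesterase Bche (5.54), the tetraspanin-like gene Tm4sf1 (5.37, 2 of 3 probe sets above 0) and Acoxl (5.37), an acyl-CoA oxidase-like gene. In 13 of the 15, at least 1 CD34-positive array was below background, so their differences depend on values that have no firm level.

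After Cd34, the largest falls included a pair of collagen VI chains, the keratin Krt6a and the BMP antagonist Grem1. Col6a1 read 2651 and 4779 in CD34-positive cells and 2.42 and 25.6 in CD34-negative cells, at least 114-fold lower (-8.82 ± 0.89, adjusted p 0.000402), and Col6a2 read 1834 and 3099.7 against 27.7 and 13, at least 76.6-fold lower (-6.97 ± 0.84). Egfl6, a matrix protein, read 2344 and 1998 against 16.9 and 21.8, at least 69.5-fold lower (-6.82 ± 0.44, adjusted p 5.82e-05). All 3 were below background in both CD34-negative arrays. Krt6a, a keratin of the inner bulge and companion layer, read 8028 and 14569.8 against 135 and 122, 84.3-fold lower (-6.40 ± 0.30, adjusted p 1.77e-05). S100a4, a calcium-binding protein, read 14468 and 14705 against 117 and 325 (-6.22 ± 0.39). Both stayed above background in CD34-negative cells, so these folds are measured on both sides.

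Grem1, a BMP antagonist, read 6041 and 9225 against 149 and 96.1, 62.5-fold lower (-5.96 ± 0.42, adjusted p 9.14e-05), and Igfbp5, which binds insulin-like growth factors, read 2928 and 7859 against 84.2 and 71 (-5.96 ± 0.59). Chat, the enzyme that makes acetylcholine, read 849 and 2324 against 15.5 and 5.95, at least 45.1-fold lower (-7.19 ± 0.81), beside the rise of Bche, an enzyme that can cleave it. The potassium channel Kcnma1 (-7.97), the malic enzyme Me3 (-6.45) and the receptor partner Ramp3 (-6.09) also fell. Falls that depended on single arrays were those of Pdzrn4 (-6.73, missing the threshold without CD34-positive replicate 2), the membrane protease Mme (-6.14, missing the threshold without CD34-positive replicate 2 or CD34-negative replicate 1) and Pi15 (-5.92, missing the threshold without CD34-positive replicate 1 or 2 or CD34-negative replicate 1). In 11 of the 15 largest falls, Cd34 among them, at least 1 CD34-negative array was below background. Kcnma1, Me3, Ramp3, Pdzrn4, Mme and Pi15 are among the 11, so their differences depend on values that have no firm level. Of the 30 genes with the largest differences, 28 also passed in WT cells, by the same fit of all 8 arrays.

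Because Runx1 is the gene raised in these mice, the promoters of these 30 genes were searched for TGTGGT, the core letters that RUNX factors bind, on both strands. RefSeq windows on GRCm38.p6, from 250 bases before to 50 bases after a start, were found for 10 of the higher and 13 of the lower genes. The letters were in 2 of 12 windows of the higher genes and in 2 of 17 windows of the lower genes, against 16.8% of all 32851 windows. Among windows of all genes that passed, they were in 12.4% of those of higher genes and 11.7% of those of lower genes. Counted by gene, the shares were 14.8% and 14.7%. The reference is all windows, not those of the measured genes, so no enrichment or depletion is read from these shares. A match is a description and not a binding site. One window of each direction is shown, at chr6:5496229-5496528 (minus strand) for Pdk4 and at chr15:92596859-92597158 (plus strand) for Pdzrn4, as the window of a gene that rose and one that fell. The capitals mark the letters as read on the other strand, ACCACA.
Pdk4: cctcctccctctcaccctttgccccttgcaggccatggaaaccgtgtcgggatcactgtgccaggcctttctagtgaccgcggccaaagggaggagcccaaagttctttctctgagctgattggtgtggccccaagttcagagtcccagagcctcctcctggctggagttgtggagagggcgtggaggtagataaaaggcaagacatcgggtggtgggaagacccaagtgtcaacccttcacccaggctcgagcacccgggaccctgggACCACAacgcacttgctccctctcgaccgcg
Pdzrn4: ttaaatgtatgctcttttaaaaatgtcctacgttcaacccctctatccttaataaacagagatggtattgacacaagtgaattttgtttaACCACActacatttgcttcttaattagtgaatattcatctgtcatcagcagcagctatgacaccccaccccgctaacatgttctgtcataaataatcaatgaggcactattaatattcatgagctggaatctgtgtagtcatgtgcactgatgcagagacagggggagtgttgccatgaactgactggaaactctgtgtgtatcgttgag

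**Figure D3:**
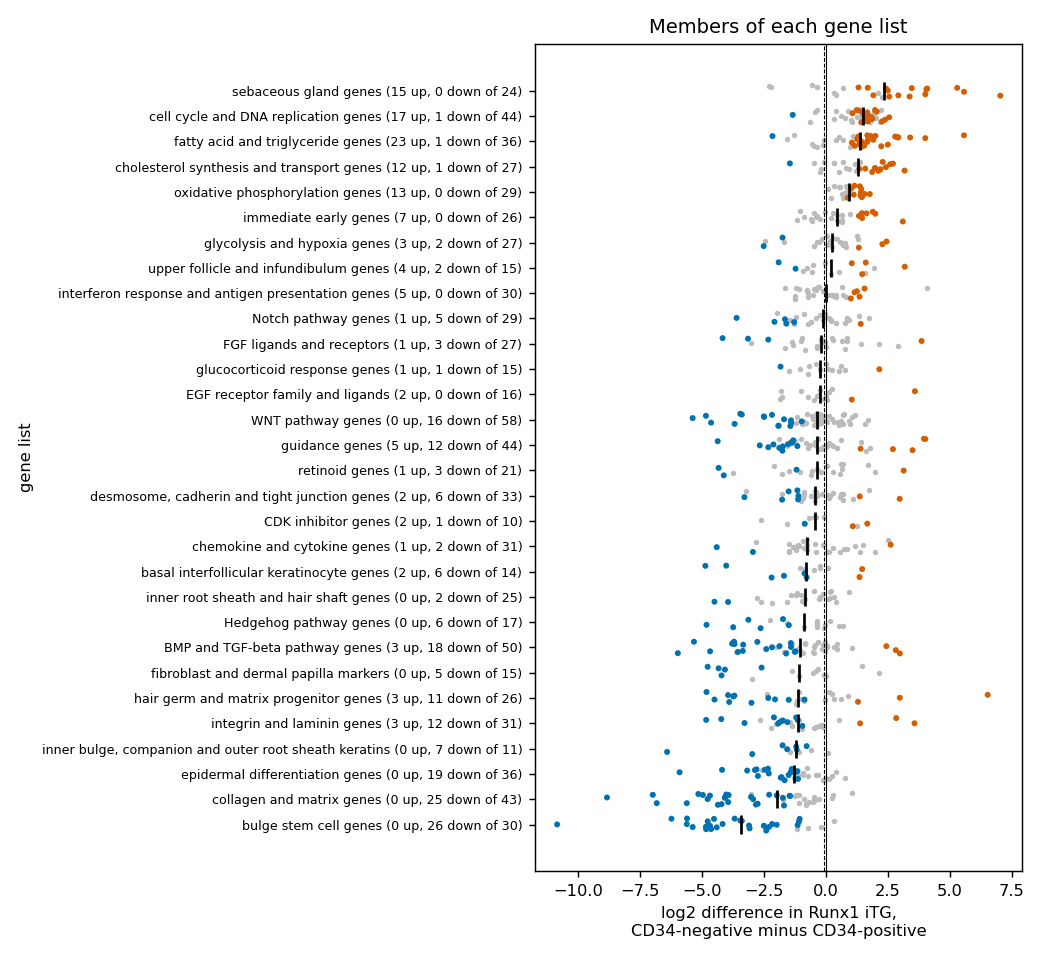
Log2 difference (x) of every measured member of the 30 gene lists with at least 2 members past the threshold in Runx1 iTG cells, 1 row per list and 1 point per gene. Orange and blue points passed at an adjusted p under 0.05, grey points did not, black ticks are list medians and the dashed line is the median of all genes, -0.06. The lists run from bulge stem cell genes (median -3.41) at the bottom to sebaceous gland genes (median 2.36) at the top.

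Of 30 bulge stem cell genes, 26 fell in CD34-negative cells and 0 rose, with a median difference of -3.41 against -0.06 for all genes. Cd34, Krt15 and Itga6, which the sort used, are among the 30, and of these Itga6 did not pass. Postn, a matrix protein of the bulge, read 18589 and 19344 against 279.7 and 544, 48.6-fold lower (-5.60 ± 0.32, adjusted p 3.47e-05). Lhx2, a LIM homeobox factor that maintains bulge stem cells, read 7077 and 7099 against 255 and 383, 22.7-fold lower (-4.50 ± 0.29). Cxcl14, a chemokine, read 10485 and 10629 against 420.0 and 599 (-4.40 ± 0.22, adjusted p 1.77e-05). In each, the 2 CD34-positive arrays lay within a narrow range far above both CD34-negative arrays. Tnc, the matrix protein tenascin C, fell by 4.67 and the secreted WNT inhibitor Sfrp1 fell by 5.37.

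Among markers of the bulge, the transcription factors Sox9 (9370.3 and 8789 against 1485 and 2319) and Nfatc1 (4613 and 5070.1 against 602 and 534) also fell, with differences of -2.29 ± 0.25 and -3.09 ± 0.22. Both were lower in both CD34-negative arrays, and both stayed well above background there. Lgr5, a receptor for R-spondins and a marker of cycling-competent follicle cells, read 7056 and 7456 against 346 and 249.9, 24.7-fold lower (-4.62 ± 0.36, adjusted p 0.000151).

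Genes of the hair germ and matrix progenitors split unevenly, with 11 of 26 lower, 3 higher and a median of -1.11. Besides Gli1, the homeobox factor Dlx3 read 1339 and 1604 against 69.3 and 140.4 (-3.89 ± 0.53, adjusted p 0.00191). Trps1, a zinc-finger repressor, read 1295 and 2382 against 62.6 and 98.2 (-4.49 ± 0.39), and Hopx, a homeodomain protein of follicle stem cells, read 8561 and 8012 against 1779.8 and 2271 (-2.04 ± 0.25). Both were lower in both CD34-negative arrays. The genes that rose were Edar, the BMP ligand Bmp4 (2.99, missing the threshold without CD34-positive replicate 2 or CD34-negative replicate 2) and the homeobox gene Cux1 (1.30, passing in 2 of the 8 fits that left out 1 array). The count of 14 genes became 9 without CD34-positive replicate 1 or 2 and 5 with day 20 arrays only.

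Of 11 inner bulge, companion and outer root sheath keratins, 7 fell and 0 rose (median -1.19). Next to Krt6a, the companion layer keratin Krt75 read 304 and 331 against 39.8 and 41.6 (-2.96 ± 0.56, missing the threshold without CD34-positive replicate 1 or 2 or CD34-negative replicate 1). Fgf18, a growth factor of the inner bulge, read 1241 and 1571 against 106 and 57.4 (-4.16 ± 0.49, adjusted p 0.000922). The basal keratin Krt5 passed narrowly (-0.77, adjusted p 0.0453, passing in 0 of the 8 fits that left out 1 array). The keratin count was 4 without WT CD34-positive replicate 1 or 2 or WT CD34-negative replicate 1 or CD34-negative replicate 2, 3 without CD34-positive replicate 2, 1 without CD34-positive replicate 1 or CD34-negative replicate 1 and 2 with day 20 arrays only.

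Upper follicle genes moved in both directions: 4 of 15 rose and 2 fell, with a median of 0.22. Krt79, a keratin of the duct between follicle and gland, read 1298 and 852 against 10625 and 8647, 9.11-fold higher (3.19 ± 0.28, adjusted p 0.000235). Plet1, a marker of the upper isthmus, read 1155 and 2374 against 4459 and 5781 (1.62 ± 0.34, missing the threshold without CD34-positive replicate 1 or CD34-negative replicate 1 or 2), and Lrig1, a negative regulator of EGF receptors, read 3268 and 3904 against 6400.1 and 8576 (1.05 ± 0.23, missing the threshold without CD34-positive replicate 1 or 2 or CD34-negative replicate 2). Lgr6, the isthmus relative of Lgr5, went the other way, at 4284 and 4172 against 1445 and 891 (-1.90 ± 0.29, adjusted p 0.00303). Gata6 read 117 and 124 against 365 and 596 and did not pass (1.95 ± 0.79, adjusted p 0.167). The count of 6 genes became 3 without CD34-positive replicate 2 or CD34-negative replicate 1, 2 without CD34-negative replicate 2 and 1 with day 20 arrays only.

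Sebaceous gland genes made up the list with the highest median, 2.36: 15 of 24 rose and 0 fell. Far2, which makes fatty alcohols for wax, read 479 and 902 against 11423 and 10507, 16.7-fold higher (4.06 ± 0.33, adjusted p 0.000183). Mgst1, a glutathione transferase abundant in sebaceous cells, read 1079 and 1334 against 10618 and 14774 (3.38 ± 0.31), and the fatty acid elongase Elovl3 read 101 and 113 against 1807 and 1658 (4.02 ± 0.35). Scd1, the desaturase of sebaceous lipid, read 8699.6 and 5769 against 21901 and 24098 (1.70 ± 0.25, adjusted p 0.00263). All 4 were also expressed above background in CD34-positive cells. Acsbg1, an acyl-CoA synthetase, rose by 3.47 and Elovl6 by 2.93. The summed signal of the list was 41554 and 30338 in CD34-positive cells and 151372 and 155684 in CD34-negative cells. The count of 15 genes became 9 with day 20 arrays only.

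The same direction was seen for lipid synthesis in general, where the list shares members with the sebaceous list. Of 36 fatty acid and triglyceride genes, 23 rose and 1 fell (median 1.38). Srebf1, the transcription factor of fatty acid synthesis genes, read 903 and 766 against 6422 and 6026, 7.48-fold higher (2.90 ± 0.21, adjusted p 9.14e-05). Dgat2, which forms triglyceride, read 950.4 and 869.7 against 5553 and 4803 (2.51 ± 0.24), and Gpam, which starts glycerolipid synthesis, read 1721 and 1667 against 10725 and 13045 (2.80 ± 0.30). The arrays of a population lay close together for these genes. The part that cells of the sebaceous gland had in this result was not tested. Acsl4, an acyl-CoA synthetase, rose by 3.41. The count of 24 genes became 15 without CD34-positive replicate 1, 14 without CD34-positive replicate 2, 12 without CD34-negative replicate 1 and 7 with day 20 arrays only.

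Of 27 cholesterol genes, 12 rose and 1 fell (median 1.32). Fdps, which makes farnesyl diphosphate, read 989.5 and 673 against 4540.4 and 3144 (2.21 ± 0.31, adjusted p 0.00216). Msmo1, a sterol oxidase, read 1281 and 726 against 6015 and 4487 (2.43 ± 0.37), and Abcg1, a cholesterol exporter, read 122 and 171 against 1227 and 1400.2 (3.18 ± 0.42). All were higher in both CD34-negative arrays. Cyp51 (2.30 ± 0.37, missing the threshold without CD34-negative replicate 1) and Lss (1.87 ± 0.31, missing the threshold without CD34-positive replicate 2) lie in the same pathway. The count of 13 genes became 5 without CD34-positive replicate 2, 4 without CD34-negative replicate 1 and 1 with day 20 arrays only.

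Of 36 genes of epidermal differentiation, 19 fell in CD34-negative cells and 0 rose (median -1.29). Tgm5, a crosslinking transglutaminase, read 7174 and 8036 against 471 and 372, 18.1-fold lower (-4.18 ± 0.27, adjusted p 5.82e-05). Lor, a cornified envelope protein, read 10971 and 8634 against 1420.4 and 2643 (-2.33 ± 0.31), and Calml3, a calmodulin-like protein, read 4918 and 5439.5 against 453 and 731 (-3.17 ± 0.33). The defining suprabasal keratins Krt1 (13397 and 4799 against 3119 and 4500.0) and Krt10 (23982 and 14920.2 against 9345 and 10604) had differences of -1.10 and -0.93 that did not pass (adjusted p 0.128 and 0.0874). The count of 19 genes became 10 without CD34-positive replicate 1 or 2, 8 without CD34-negative replicate 1 and 12 with day 20 arrays only. Of 14 genes of basal interfollicular keratinocytes, 6 fell and 2 rose, with Igfbp3 at 2029 and 2622 against 56.2 and 113 (-4.85 ± 0.47). The count of 8 genes became 5 without WT CD34-negative replicate 1 or 2 or CD34-positive replicate 1, 4 without CD34-positive replicate 2 or CD34-negative replicate 1 and 3 with day 20 arrays only. Of 25 inner root sheath and hair shaft genes, 2 fell, Trps1 and Hoxc13, and none rose (median -0.84, or -0.22 with values under background set to it). Hoxc13 read 953 and 1085 against 32.9 and 134 (missing the threshold without CD34-positive replicate 1 or 2 or CD34-negative replicate 1).

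Several WNT pathway genes fell and none rose: 16 of 58 (median -0.36). Among the receptors, Fzd2 read 8435 and 8549.7 against 675 and 656, 12.8-fold lower (-3.67 ± 0.27, adjusted p 0.000115), beside Lgr5. Among the secreted proteins, Dkk3 read 9629.9 and 12379.9 against 262 and 562 (-4.83 ± 0.42), beside the inhibitor Sfrp1. Among nuclear effectors, Tcf7l2 read 4739 and 5512 against 825 and 997 (-2.49 ± 0.23), and the co-repressor Tle4 read 1221 and 1068 against 229 and 283 (-2.17 ± 0.25). The genes that fell thus included both receptors and inhibitors. The count of 16 genes became 10 without CD34-positive replicate 2, 9 without CD34-negative replicate 1 and 7 with day 20 arrays only.

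Of 50 BMP and TGF-beta genes, 18 fell and 3 rose (median -1.04). The largest fall was that of the antagonist Grem1. Ltbp1 and Ltbp2, of the latent TGF-beta binding protein family, fell by 3.70 and 3.77. Id4, a target of BMP signals, read 8268 and 7318 against 668 and 897 (-3.33 ± 0.25, adjusted p 0.000134), and Tgfbi, a TGF-beta induced matrix protein, read 10941 and 11744 against 1154 and 2435 (-2.76 ± 0.31). The receptor Tgfbr2 rose, at 774 and 533 against 3697 and 3318 (2.45 ± 0.26, with 2 of 3 probe sets above 0). The count of 21 genes became 13 without CD34-negative replicate 1, 10 without CD34-positive replicate 2 and 8 with day 20 arrays only.

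Hedgehog genes fell in 6 of 17 cases and rose in none (median -0.88). Gas1, a co-receptor, read 15072 and 8938 against 1286 and 1387, 8.69-fold lower (-3.12 ± 0.26, adjusted p 0.000183). Gli2, an activator of the pathway, read 3937 and 3708 against 246 and 337 (-3.73 ± 0.58), and Kif7, a ciliary regulator, read 1091 and 1012 against 157 and 184 (-2.63 ± 0.33). Receptor, co-receptor, effectors and target were all lower in both CD34-negative arrays. The count of 6 genes became 2 with day 20 arrays only.

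Of 27 FGF genes, 3 fell and 1 rose, 14.8% of the list beside 9.76% of all genes. The receptors Fgfr1 (7904 and 8679 against 1842 and 1500.4) and Fgfr3 (2242 and 2736 against 233 and 341) fell by 2.32 and 3.13, with the ligand Fgf18. Fgfbp1, a protein that carries FGFs out of the matrix, read 1201 and 685 against 14006 and 12526, 14.6-fold higher (3.87 ± 0.39, adjusted p 0.000419). Of 16 EGF receptor family genes, Nrg4, a ligand of ERBB4, rose (153 and 116 against 1478 and 1770.3, 3.60 ± 0.53), as did Lrig1, and none fell. These 2 were 12.5% of the list, near the 9.76% of all genes. Their count of 2 became 1 without CD34-positive replicate 1 or 2 or CD34-negative replicate 2 and 0 with day 20 arrays only.

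Of 43 collagen and matrix genes, 25 fell and 0 rose (median -1.98). Col1a1, a chain of collagen I, read 7741 and 6377 against 151 and 445, 27.2-fold lower (-4.76 ± 0.46, adjusted p 0.000322), and Fbln1, a basement membrane fibulin, read 6095 and 7888 against 859.7 and 1132 (-2.81 ± 0.27). Both arrays of CD34-positive cells were high for both. The count of 25 genes became 16 without CD34-positive replicate 1, 15 without CD34-positive replicate 2 or CD34-negative replicate 1 and 14 with day 20 arrays only.

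Beside these genes, fibroblast and dermal papilla markers were read. Of 15, 5 fell and 0 rose, and their summed signal was 10409 and 10838 in CD34-positive cells and 604 and 1089 in CD34-negative cells. Col1a1 and Col1a2 made up most of that sum in CD34-positive cells. The count of 5 became 3 without CD34-positive replicate 1 or 2 or CD34-negative replicate 1 and 3 with day 20 arrays only. The others that fell were Crabp1, a retinoic acid binding protein (384 and 1322 against 26 and 48.8, missing the threshold without CD34-positive replicate 2), the intermediate filament gene Vim (544 and 239.8 against 40.5 and 89.6, missing the threshold without CD34-positive replicate 1 or CD34-negative replicate 1) and the collagen gene Col3a1 (57.8 and 99.9 against 3.42 and 6.03, missing the threshold without CD34-positive replicate 1 or 2 or CD34-negative replicate 1). Of the markers that check the fibroblast label, besides the collagen I chains, Pdgfra read 5.42 and 50.9 in CD34-positive cells and 81.9 and 68.3 in CD34-negative cells, Dcn read 43.4 and 63.2 against 33.7 and 40.8, and Lum read 9.97 and 22.2 against 2.60 and 19.6. The highest value of these 3 genes was 81.9, and none of them passed. The part of other cells in the matrix result was not tested.

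Of 31 integrin and laminin genes, 12 fell and 3 rose (median -1.13). Itgb6, the β6 chain of an integrin that can release TGF-beta, read 1307 and 1443 against 28.3 and 83.3 (-4.82 ± 0.62, adjusted p 0.00129). Col7a1, the collagen of anchoring fibrils, read 4383 and 4044 against 313 and 604 (-3.27 ± 0.33), and Lamb3, a chain of laminin-332, read 5145 and 5553 against 1226 and 1629 (-1.92 ± 0.27). Lama4, a laminin chain, rose instead, at 115 and 166 against 1045 and 940.4 (2.85 ± 0.35). The count of 15 genes became 8 without CD34-positive replicate 2 or CD34-negative replicate 1 and 3 with day 20 arrays only.

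Of 44 cell cycle and DNA replication genes, 17 rose and 1 fell in CD34-negative cells (median 1.52). Mcm6, a subunit of the replicative helicase, read 1085 and 661 against 4682 and 4252, 5.27-fold higher (2.40 ± 0.30, adjusted p 0.0012), with 2 of 3 probe sets above 0. Cdk6, a G1 kinase, read 1044 and 1023 against 3413 and 3337 (1.71 ± 0.21, adjusted p 0.00108). Myc, a growth-promoting transcription factor, read 2026 and 2029 against 6100.3 and 4338 (1.34 ± 0.23, missing the threshold without CD34-negative replicate 1), and the cyclin Ccnd3 was lower (-1.33 ± 0.27, passing in 4 of the 8 fits that left out 1 array). This list rested on few arrays: the count of 18 became 11 without WT CD34-negative replicate 1 or 2, 4 without CD34-negative replicate 2, 3 without CD34-positive replicate 2, 2 without CD34-negative replicate 1 and 0 with day 20 arrays only.

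Of 10 CDK inhibitor genes, Cdkn2c (1.68) and Cdkn1a (1.09) were higher and Cdkn1b (-0.84) was lower with all arrays (adjusted p 0.0343, 0.0453 and 0.0496). These 3 were 30% of the list beside 9.76% of all genes. Their count of 3 became 1 without WT CD34-negative replicate 1, 0 without WT CD34-positive replicate 1 or 2 or WT CD34-negative replicate 2 or CD34-positive replicate 2 or CD34-negative replicate 1 or 2 and 0 with day 20 arrays only. Of 26 immediate early genes, 7 rose and 0 fell (median 0.47). Egr3, a growth factor-induced zinc-finger factor, read 1071 and 506 against 5729.5 and 7063, 8.64-fold higher (3.11 ± 0.38, adjusted p 0.00105), and Ier2 read 309 and 284 against 1045 and 1352 (2.0 ± 0.32). Their count of 7 became 4 without CD34-negative replicate 1 or 2 and 0 with day 20 arrays only.

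Genes of oxidative phosphorylation rose in 13 of 29 cases and fell in none (median 0.93). Cox5a, a subunit of cytochrome c oxidase, read 5531 and 3771 against 11792 and 13227 (1.45 ± 0.26, adjusted p 0.00699, missing the threshold without CD34-positive replicate 2). Tfam, which maintains mitochondrial DNA, read 238 and 361 against 996 and 1018 (1.78 ± 0.32, missing the threshold without CD34-negative replicate 1). The count of 13 became 4 without CD34-negative replicate 2, 1 without CD34-positive replicate 2 or CD34-negative replicate 1 and 0 with day 20 arrays only. None of 22 ribosomal protein genes passed in either direction, with a median of 0.10. The one with the smallest p, Rpl14, read 1172 and 715 against 2185 and 2163 (adjusted p 0.0802).

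Markers of other cells that a skin sort could hold were also read. Of 11 melanocyte markers 1 fell, Mitf (1984 and 4179.9 against 374 and 868, missing the threshold without CD34-positive replicate 2 or CD34-negative replicate 1), while the defining gene Dct read 42.1 and 39.5 against 3.91 and 32.9. Of 16 immune markers only Epcam, which keratinocytes also express, was lower (-0.89, adjusted p 0.0307, passing in 4 of the 8 fits that left out 1 array), and the pan-leukocyte gene Ptprc read 2.42 and 26.3 against 3.40 and 14.5. None of 12 endothelial and mural, 5 adipocyte, 8 Merkel cell and nerve, or 7 muscle and erythroid markers passed. Adipoq, an adipocyte hormone, read 33.5 and 21.6 in CD34-positive and 17.8 and 11 in CD34-negative cells. Summed signals of the melanocyte list were 2259 and 4706 against 529 and 1258, most of it Mitf, and those of the immune list 5442 and 6395 against 3245 and 3546, most of it Epcam.

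The same contrast in WT cells, which shares no array with the transgenic one, gave 571 higher (3.14%) and 690 lower (3.79%) genes, 6.93% of genes in all. Both contrasts took the spread of each gene from the same fit of all 8 arrays. Passing in 1 genotype is therefore not independent of passing in the other. Of the genes that passed, 923 passed in both genotypes in the same direction, which is 52% of the transgenic and 73.2% of the WT genes, and 0 passed in opposite directions. Across genes, which are not independent replicates, the 2 sets of differences had a Pearson correlation of 0.59. Bulge stem cell genes fell in 23 of 30 cases in WT (median -2.79) and sebaceous gland genes rose in 17 of 24 (median 2.61). Cholesterol genes rose in 3 of 27 in WT (median 0.77), and epidermal differentiation genes fell in 9 of 36 (median -0.95). In transgenic cells the medians of these lists were 1.32 and -1.29. No gene of either list passed the test of the difference between genotypes given below. The WT count of 1261 genes became 580 and 332 without WT CD34-positive replicate 1 and 2, and 645 and 433 without WT CD34-negative replicate 1 and 2.

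**Figure D4:**
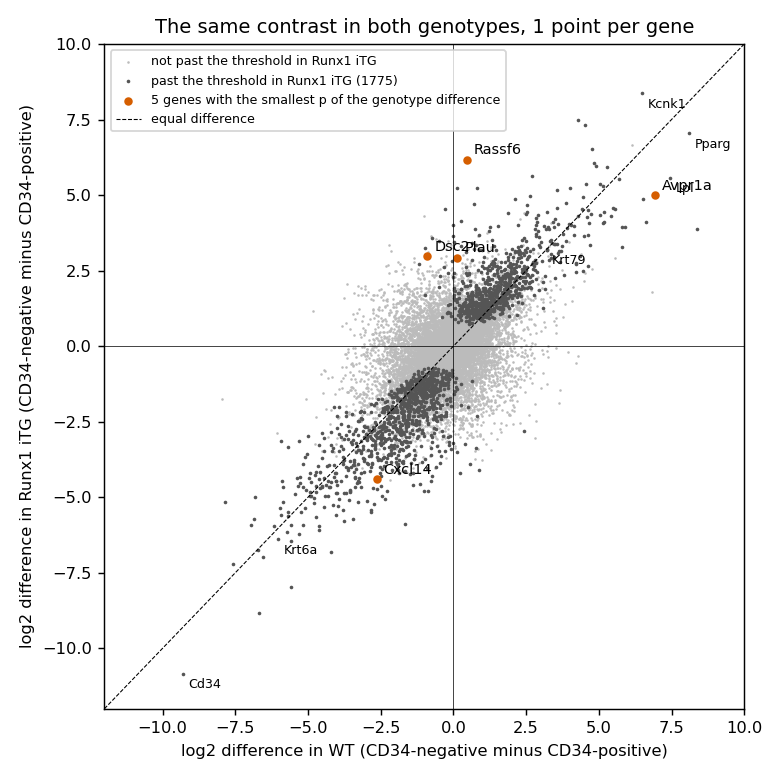
Log2 difference between CD34-negative and CD34-positive cells in WT (x) and Runx1 iTG (y), 1 point per gene. Dark points passed in Runx1 iTG (1775), the dashed line marks equal differences, and the 5 orange genes had the smallest unadjusted p for the difference between genotypes, which no gene passed after adjustment.

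Whether any difference was particular to transgenic cells was tested with the interaction of population and genotype. With limma, 0 of 18193 genes passed (0%), the smallest adjusted p was 0.910, and 839 genes had an unadjusted p under 0.05. Without WT CD34-negative replicate 2, 3 genes passed, Cpne8 (-4.24), Ccpg1 (-3.63) and Pigb (-3.65), each at an adjusted p of 0.0313. These 3 are named because of that count, after their values were seen. The 5 genes with the smallest unadjusted p are given as values. Rassf6 read 3.70 and 2.42 against 234 and 199 in transgenic cells, and 91.9 and 73.6 against 79.9 and 159.8 in WT cells (transgenic minus WT difference 5.71 ± 0.98, adjusted p 0.910). Its 2 transgenic CD34-positive arrays were the only ones of the 8 below background. Plau, the urokinase protease, read 569 and 273 against 3255 and 2771 in transgenic cells, and 429 and 580.1 against 543 and 552 in WT cells (2.80 ± 0.51). Cxcl14 read 20282 and 21931 against 3347 and 3405 in WT (-1.75 ± 0.31), and Avpr1a, a vasopressin receptor, rose in both genotypes, at 390.1 and 402 against 12381 and 12785 in transgenic cells and 78.7 and 116 against 10983 and 12298 in WT cells (-1.94 ± 0.35). Dsc2, a desmosomal cadherin, read 135 and 89.9 against 83.6 and 41.8 in WT, and 88.2 and 104 against 917 and 628 in transgenic cells, missing the threshold without CD34-negative replicate 1 there (3.88 ± 0.75, adjusted p 0.910).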

How the data were processed

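RNA of the sorted cells was amplified from 5 ng by NuGEN Ovation Pico WTA chemistry for Affymetrix mouse arrays, per the labels' protocols. The deposited values are summarised probe set intensity on a linear scale, which the authors had brought to 1 level per array (a mean of 500.002 without the top and bottom 2%). The sources used here do not name the program. The 64 control probe sets were removed, arrays were scaled to a common 75th percentile, and log2 was taken of signals no lower than 2.42. By the platform annotation given, 34945 of 45037 probe sets had 1 gene symbol, 932 several and 9160 none, and the brightest stood for each of 18193 genes. Background was the 95th percentile of 27 bacterial control probe sets. Where an array of the dimmer group lay under it, "at least N-fold" puts background in place of the lower value.

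One model of all 8 arrays, with 4 group means, was fitted in limma 3.58.1 (R 4.3.3) using an intensity trend, with Benjamini-Hochberg adjustment over all genes and a threshold of 0.05. It was tested on simulated data, where large changes were mostly recovered and small ones mostly not. False calls made up a somewhat larger share than the threshold allows. The simulated noise was independent between arrays, its spread came from the same fit, and only brighter genes were changed. Recovery of dim genes, and the effect of any structure shared between arrays, were therefore not tested. The samples are labelled biological replicates, but the sources used here do not say whether the 2 populations share animals, so p-values measure the spread between these samples. An exact permutation test of 2 arrays against 2 cannot go below 0.333.

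Named genes are the sort genes, Runx1, Krt6a and Pparg, the top 15 genes by difference in each direction that passed, did not overlap between populations and had a brighter mean of at least 130 (the overall probe set median), up to 6 members by p of each of 38 lists, 5 genes by p of the interaction, and markers that check the labels. Clone-type symbols and Xist or Y-linked genes were not ranked. The members and lists were chosen with earlier results of these data known. Alternatives were quantile or no further scaling, an offset, dim genes left out, other probe set rules, no trend, 1 genotype's arrays, a replicate block, a sex term, day 20 arrays only, and each array left out.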

Additional observations from a re-analysis of the deposited data

Results flagged for a closer look

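Among 239 named genes, 3 (1.26%) had both CD34-negative arrays on one side of both CD34-positive arrays in Runx1 iTG cells and on the opposite side in WT cells. Over all 18193 genes this held for 536 (2.95%). Dsc2, a desmosomal cadherin, had a difference of 2.99 in Runx1 iTG and -0.90 in WT, where it did not pass (interaction unadjusted p 0.000421, limma adjusted p 0.910). Kit, a receptor of melanocytes and mast cells, had a difference of 1.92 in Runx1 iTG and -0.86 in WT, with transgenic signals of 15.6 and 4.51 against 22.9 and 43.8 near background (interaction limma adjusted p 1). Mylpf, a skeletal muscle myosin chain, had a difference of -1.0 in Runx1 iTG and 1.23 in WT (interaction limma adjusted p 1). All 7 muscle and erythroid markers, Mylpf included, had summed transgenic signals of 301 and 278 against 152 and 262, beside a background of 31.1 per probe set. None of the 3 passed the test of the difference between genotypes.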

How the results depend on the processing

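With 2 arrays a group, the counts of genes depended on the fit. For genes higher and lower in CD34-negative Runx1 iTG cells (818 and 957), every probe set on its own gave 1347 and 1596, no intensity trend 278 and 430, only the Runx1 iTG arrays 395 and 437, and day 20 arrays only, 1 transgenic array against 1 with the spread taken from WT, 107 and 254. The WT count of 1261 became 2014, 411, 752 and 720 in the same 4 settings. Leaving out 1 array gave 262 to 696 higher and 375 to 861 lower genes in Runx1 iTG, 332 to 1181 genes in WT, and 0 to 3 genes for the difference between genotypes, which was 0 in every other setting run. The other settings run, quantile normalization, no further scaling, an offset of 32, dim genes left out, the mean of probe sets, the replicate block and the sex term, kept the counts within 1.5 times. Settings for the WT count and the sex term were added after seeing the data. Of 237 named gene results, 166 passed, 60 of them in every setting. Psmb8, an immunoproteasome subunit, changed sign with the mean of its probe sets, to -0.72.

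The sources used here do not state that replicate numbers pair the samples. Deviations of same-numbered arrays correlated at 0.0265 in WT and 0.0822 in Runx1 iTG over all genes, and at 0.0644 and 0.210 over genes brighter than the median probe set. Same-numbered arrays also share the sex that Xist points to. With 2 pairs a genotype, pairing is not settled by these values. The replicate block gave 888 higher and 1042 lower genes in Runx1 iTG, 1375 genes in WT and 0 for the difference between genotypes. Below background, differences have no firm size: 76 higher genes had a CD34-positive array there and 205 lower genes a CD34-negative array.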

Other observations

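Guidance genes of the semaphorin, ephrin, netrin and Slit systems moved in both directions between the transgenic populations: of 44, 5 were higher and 12 lower in CD34-negative cells (median -0.36). The semaphorin co-receptors Nrp1 (52.9 and 120.4 in CD34-positive against 1399.8 and 1201 in CD34-negative cells) and Nrp2 (656 and 496 against 4565 and 3062) rose by 4.02 ± 0.63 and 2.71 ± 0.38. In WT cells Nrp1 had a difference of -0.01 and did not pass, and its interaction did not pass either (limma adjusted p 0.910). The ligand Sema3e read 3753 and 6761 against 1158 and 548 (-2.66 ± 0.39), and the plexin receptor Plxnb1 read 1817 and 1588 against 438 and 355 (-2.11 ± 0.27). The guidance count of 17 became 11 without CD34-positive replicate 1, 6 without CD34-positive replicate 2, 4 without CD34-negative replicate 1 and 3 with day 20 arrays only.

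Of 29 Notch genes, 5 were lower, among them the glycosyltransferase Lfng (2932 and 2677 against 1147 and 757, -1.59 ± 0.26) and the ubiquitin ligase Dtx3 (-2.07 ± 0.26), and 1 was higher, the ligand Dll1 (1.41 ± 0.33, missing the threshold without CD34-positive replicate 2 or CD34-negative replicate 1 or 2). Their count of 6 became 3 without CD34-positive replicate 2 or CD34-negative replicate 1 and 1 with day 20 arrays only. Of 21 retinoid genes, 1 was higher and 3 lower, 19.0% of the list beside 9.76% of all genes. Cyp26b1, which degrades retinoic acid, read 677 and 1085 against 55.9 and 43.9 (-4.11 ± 0.51), while Aldh1a1, which makes it, read 76.1 and 33.2 against 359 and 550.5 (3.15 ± 0.71, missing the threshold without CD34-positive replicate 2 or CD34-negative replicate 1 or 2). The retinoid count of 4 became 0 with day 20 arrays only. Of 31 chemokine and cytokine genes, the receptor Cxcr4 read 6617 and 3560.3 against 597 and 675 (-2.94 ± 0.39), and 1 gene was higher and 2 lower in all, a share near the 9.76% of all genes. Of 27 glycolysis and hypoxia genes, 3 were higher and 2 lower, with the carbonic anhydrase Car12 at 1705 and 2027 against 10447 and 7871 (2.29 ± 0.23), and their count of 5 became 2 without WT CD34-positive replicate 1 or 2, 1 without CD34-positive replicate 2 or CD34-negative replicate 1 and 2 with day 20 arrays only.

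Of 30 interferon and antigen presentation genes, 5 were higher, with Ifitm3, an antiviral membrane protein, at 4309 and 3860.3 against 9655 and 11425 (1.36 ± 0.22), and their count became 2 without CD34-negative replicate 2, 1 without CD34-positive replicate 1 or 2 or CD34-negative replicate 1 and 0 with day 20 arrays only. Of 33 junction genes, 2 were higher and 6 lower, and their count of 8 became 5 without WT CD34-positive replicate 2, 3 without CD34-positive replicate 1 or 2, 0 without CD34-negative replicate 1 and 1 with day 20 arrays only. The desmosomal plakoglobin gene Jup read 9114 and 8133 against 3961 and 4078 (-1.10 ± 0.20, missing the threshold without CD34-negative replicate 1). Of 15 glucocorticoid response genes, Hsd11b2, which inactivates the hormone, was higher (2.16 ± 0.38, missing the threshold without CD34-negative replicate 1) and the kinase gene Sgk1 was lower (-1.82 ± 0.34, missing the threshold without CD34-positive replicate 2 or CD34-negative replicate 1). Their count of 2 was 13.3% of the list, near the 9.76% of all genes, and gives no result about the list.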
